A study of Mus musculus with 6 samples.

Results

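Gene expression in the testes of Padi2/Padi4 double knockout (DKO) mice was compared with that in wild type (WT) testes, using the 2 DKO and 2 WT libraries among the 6 of the study and all genes with enough counts to be tested. Of the 55536 genes in the table of counts, 20744 were tested, 1227 of them on chromosome 4, where both targeted genes lie, and 19517 elsewhere. All mice were on the FVB/NJ background, and testes were taken at 4 months of age, snap-frozen and sequenced as poly(A)-selected RNA from 2 mice per genotype. The Padi2 knockout (P2KO) carried a gene trap in which LacZ and Neo sequence replaced the coding part of exon 1 of Padi2. DKO mice were made from P2KO zygotes by CRISPR/Cas9 and descended from 1 founder with a deletion of 4 nucleotides in exon 1 of Padi4, so they carried the Padi2 allele of the P2KO line as well. The 2 P2KO libraries entered the fit to help estimate the spread, and their values are set beside those of the DKO for some genes. Comparisons of P2KO and of DKO with WT share the WT libraries.

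Citrulline in proteins is formed from arginine by the peptidylarginine deiminases (PADs), which need calcium for their activity. The side chain loses its charge in this reaction. Histone tails and many other proteins are substrates, and PAD2 and PAD4 have been studied as regulators of transcription, including that of hormone-responsive genes. The testis holds germ cells in successive stages of spermatogenesis, the Sertoli cells that nurse them, and the interstitial Leydig cells that make testosterone under the control of luteinizing hormone.

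The targeted genes came first. Counts of Padi2 were 47 and 64 in WT, 100 and 55 in P2KO and 59 and 83 in DKO, with a log2 fold change of DKO against WT of 0.35 (adjusted p = 0.575). This and every adjusted p below comes from the quasi-likelihood test of edgeR, adjusted by Benjamini and Hochberg's method. Padi4 had 20 and 43 counts in WT, 11 and 10 in P2KO and 4 in each DKO library, and it fell by 2.94 on the log2 scale (SE 0.513, adjusted p = 2.78e-04). Both counts cover all exons of a gene, so they do not test the alleles, which change exon 1. The other family members had 26 and 20 (Padi1), 185 and 202 (Padi3) and 235 and 366 counts (Padi6) in WT against 31 and 32, 135 and 135, and 259 and 270 in DKO. Among these Padi3 fell (log2 fold change -0.54, adjusted p = 0.0351), a call that was lost on leaving out any WT or DKO library.

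The libraries held between 21939393 and 27306679 counts on genes. Markers of the testis' own cell types were present in every library. The summed normalized counts of 11 markers of elongating spermatids were 646657 and 653197 in WT, 570929 and 615236 in P2KO and 623707 and 605901 in DKO. Those of 10 spermatocyte markers lay between 92018 and 96199 in the 4 WT and DKO libraries. Of the elongating spermatid markers 3 fell (Prm1, Tnp1 and Tsks) and none rose, with 1 fall after the length correction described below, and of the spermatocyte markers 1 rose (Sycp2) and none fell. Of 8 Leydig markers 4 rose and 1 fell, and of 16 Sertoli markers 1 fell and none rose. Without DKO 1 the Leydig markers had 1 rise and no fall and the elongating spermatid markers 1 fall, and without DKO 2 neither the elongating spermatid nor the spermatocyte markers had a call. Without WT 2 or with upper-quartile scaling 2 Sertoli markers fell. Of markers of cells from outside the testis, 2 of 10 epididymal, 4 of 8 adipose, 4 of 8 lymphocyte and 3 of 5 red blood cell genes had enough counts to be tested. None of them passed the test. The red blood cell list had 1 fall with RLE or upper-quartile scaling, and 1 with TMM factors from genes off chromosome 4. It had 1 with edgeR on 4 libraries and 2 with no filter on low counts. None of 5 endothelial, 7 macrophage, 7 peritubular myoid, 10 spermatogonial and 8 round spermatid markers off chromosome 4 passed the test of the reported fit either. The samples were pieces of whole tissue, so fewer cells of a type and less RNA per cell cannot be told apart.

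Outside chromosome 4, some genes of the sperm flagellum, nuclear pore, chromatin and ubiquitin system, many of them long, rose in DKO testes, kallikrein genes and the gene of the steroidogenic protein Star rose as well, and several genes of RNA-binding proteins fell. Of the 19517 genes tested there, 355 were higher in DKO (1.82%) and 179 were lower (0.917%) at an adjusted p under 0.05. The groups of normalized counts did not overlap for 533 of these 534 genes, nor for 42.7% of all genes tested there. Most changes were small: 305 of the genes that rose and 135 of those that fell changed less than 1.5-fold, with median log2 fold changes of 0.34 and -0.42, and 22 and 12 changed at least 2-fold. At an unadjusted p under 0.05 there were 2635 genes. Upper-quartile scaling in place of TMM gave 298 higher and 247 lower genes, so that 54.7% of the calls were rises and not 66.5%, while the median log2 fold change of all tested genes off chromosome 4 moved from -0.005 to -0.028. Without WT 2 the counts were 162 and 183, without WT 1 670 and 235, without DKO 1 184 and 64, and without DKO 2 81 and 78.

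Direction went with exon length, here the merged length of all annotated exons of a gene. It can exceed the length of any single transcript, and the length of transcripts was not measured. Genes that rose had a median exon length of 9589 nucleotides and genes that fell one of 2614, against 3340 for all tested genes off chromosome 4. Among the 2564 genes with 8 kb of exons or more, 215 (8.39%) were called higher and 12 (0.468%) lower, and 75.4% had a positive log2 fold change. Among the 2687 genes under 1 kb, 15 (0.558%) were called higher and 30 (1.12%) lower, and 33.7% were positive. The median log2 fold change climbed from -0.10 under 1 kb over -0.02 between 2 and 4 kb to 0.10 at 8 kb and over. In P2KO against the same WT libraries these medians were -0.02, -0.02 and 0.06.

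**Figure D1:**
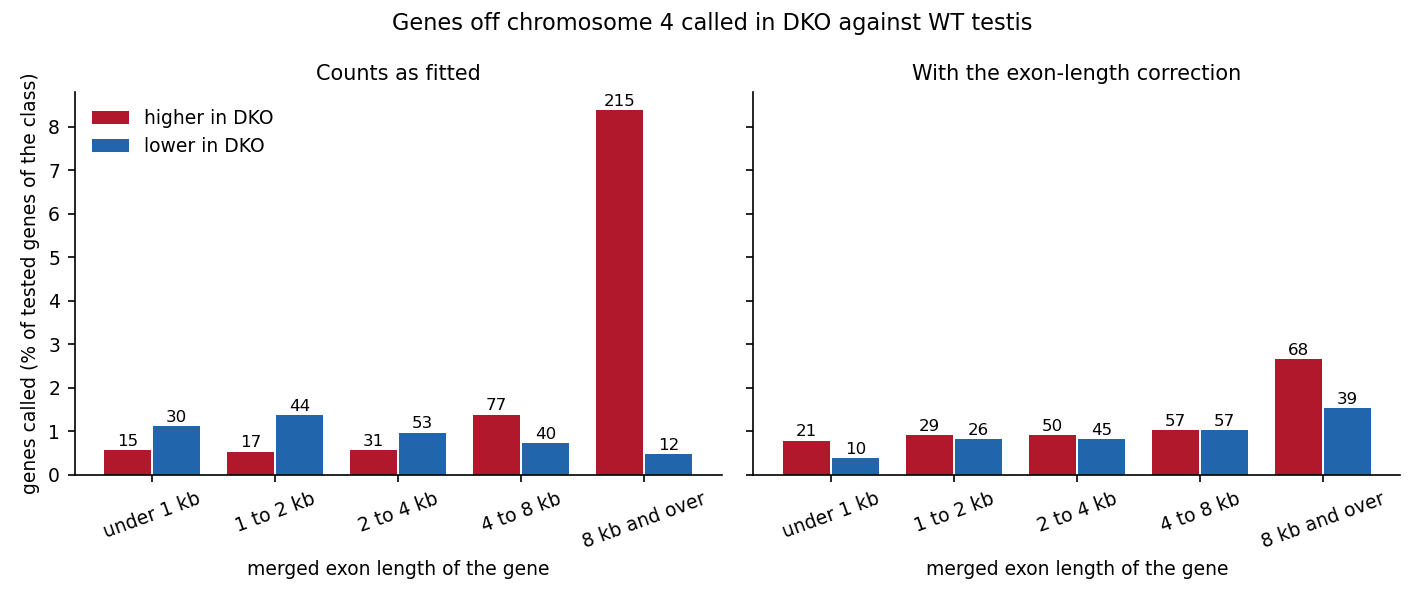
Genes off chromosome 4 by merged exon length, in bins from under 1 kb to 8 kb and over: the percent of tested genes called higher and called lower in DKO than in WT, as fitted and after the length correction. As fitted, the share called higher reaches 8.39% in the longest bin, and the share called lower is largest, at 1.37%, between 1 and 2 kb.

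A trend with length was also present between libraries of 1 genotype. Spearman's correlation of the log2 ratio with exon length was -0.196 for WT 2 over WT 1, 0.129 for P2KO 2 over P2KO 1 and 0.0199 for DKO 2 over DKO 1, across genes that share these libraries. Both DKO libraries gave 0.148 over WT 1 and 0.30 over WT 2. Relative to the mean of all libraries, genes of 8 kb and over stood lowest in WT 2 and highest in DKO 2, and genes under 1 kb stood lowest in DKO 1 and highest in WT 2. The source of this trend was not tested. Most groups of genes are therefore given with their exon length and with a second count, from a fit in which a smooth curve on exon length was removed from every library. In that fit 225 genes rose and 177 fell off chromosome 4, among them 187 and 132 of the genes called without it. Without the correction, 0.566% of tested genes with 2 to 4 kb of exons rose, 1.38% with 4 to 8 kb and 8.39% with 8 kb and over. Rises in the groups below stand beside these shares.

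**Figure D2:**
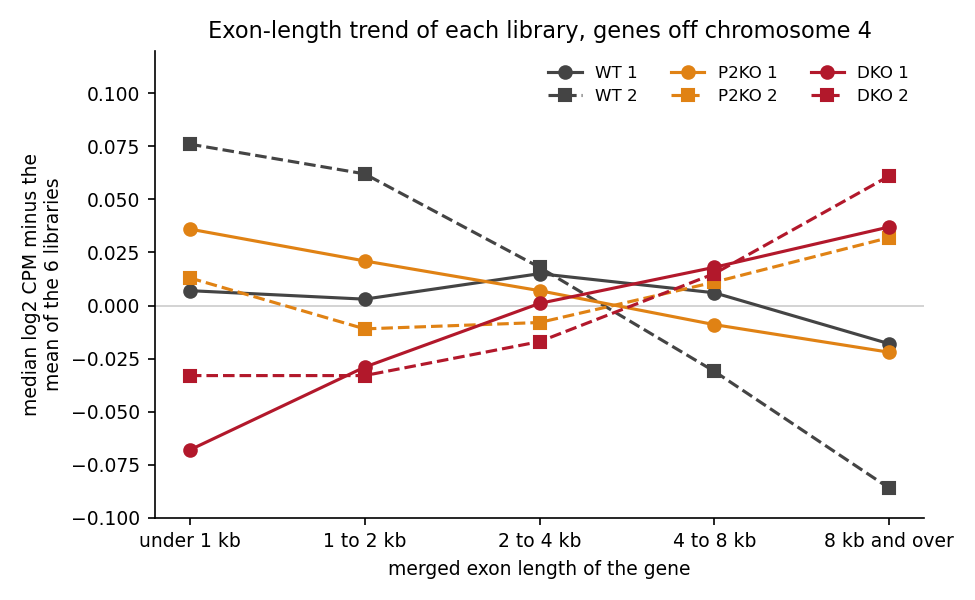
Median log2 deviation of each library from the mean of the 6 libraries (y axis) in the 5 bins of exon length (x axis), for tested genes off chromosome 4; 1 line per library, coloured by genotype. WT 2 slopes down with length, both DKO libraries slope up, and WT 1 lies near 0 at both ends.

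Axonemal dynein heavy chains, the motor subunits that bend the sperm flagellum, rose in most of their genes. Their genes had a median exon length of 15024 nucleotides. Of their 16 genes, 14 rose and none fell, with a median log2 fold change of 0.38 and a range from 0.10 to 0.78. After the length correction 10 of the 16 were called and the median was 0.22. Without WT 2 there were 12, and without DKO 2 there were 6.

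Dnah8, an outer arm heavy chain of the sperm tail, had normalized counts of 29917 and 26037 in WT and 36495 and 39140 in DKO, so that the genotypes did not overlap. Its log2 fold change was 0.43 (adjusted p = 7.88e-06), and 0.20 with the length correction (adjusted p = 0.00982). Dnah14 (0.44), Dnah3 (0.46), Dnah17 (0.41) and Dnah5 (0.78) rose too, and Dnah5, with at most 139 counts in any WT or DKO library, was no longer called after the correction (adjusted p = 0.0673). The heavy chains that did not pass the test were Dnah9, with 216 and 206 in WT and 214 and 239 in DKO, and Dnah11, with 23.7 and 37.0 against 28.7 and 41.3. Dnah7a, Dnah7b and Dnah7c share stretches with at least 98.5% identity, so counts could be split among these genes and their separate values are uncertain.

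Among 76 other proteins of the axoneme and flagellum, whose median exon length was 3107 nucleotides, 5 rose and none fell, and the median log2 fold change was 0.03. With the length correction 5 rose and 1 fell, without WT 2 there were 3 rises and 2 falls, and without DKO 2 there were 2 rises. Fsip2, a protein of the fibrous sheath around the sperm tail, had 9857 and 8940 normalized counts in WT, 11202 and 11522 in P2KO and 13398 and 15528 in DKO. The libraries stood in 3 separate steps, with DKO uppermost. Fsip2 rose by 0.62 on the log2 scale in DKO (SE 0.0624, adjusted p = 6.98e-09) and by 0.42 after the length correction (adjusted p = 4.00e-07), which was among the smallest p-values outside chromosome 4. P2KO differed from the same WT libraries by 0.27 (adjusted p = 0.0330). The remaining rises were in Cfap54 (0.39), Hydin (0.40) and Spag17 (0.26), all proteins of the central apparatus of the axoneme, and in Qrich2 (0.29), a protein needed for flagellum assembly.

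Of 35 genes of intraflagellar transport and its dynein 2 motor (median exon length 4012 nucleotides), 3 rose and 2 fell, and after the length correction 1 rose and 2 fell. Without DKO 1 there were 2 rises, without DKO 2 there was 1 rise, and in neither case a fall, while without WT 1 there were 6 rises and 1 fall and without WT 2 there were 2 rises. Dync2h1, the heavy chain of dynein 2, had 4080 and 3609 normalized counts in WT and 4852 and 5366 in DKO (log2 fold change 0.41, adjusted p = 6.45e-05). Of 54 centrosome and centriole genes, 11 rose and 1 fell, at a median exon length of 7227 nucleotides, and 3 rises and the fall were called after the length correction. There were 2 rises without DKO 2, 4 without WT 2 and 6 without DKO 1. Sfi1, a protein of the centriole that binds centrins, rose from 731 and 806 to 1021 and 1306 (0.59, adjusted p = 4.99e-05), with 0.53 after the correction. Cep131, a protein of centriolar satellites, fell from 1753 and 1357 to 1143 and 1105 (-0.46, adjusted p = 4.92e-04).

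**Figure D3:**
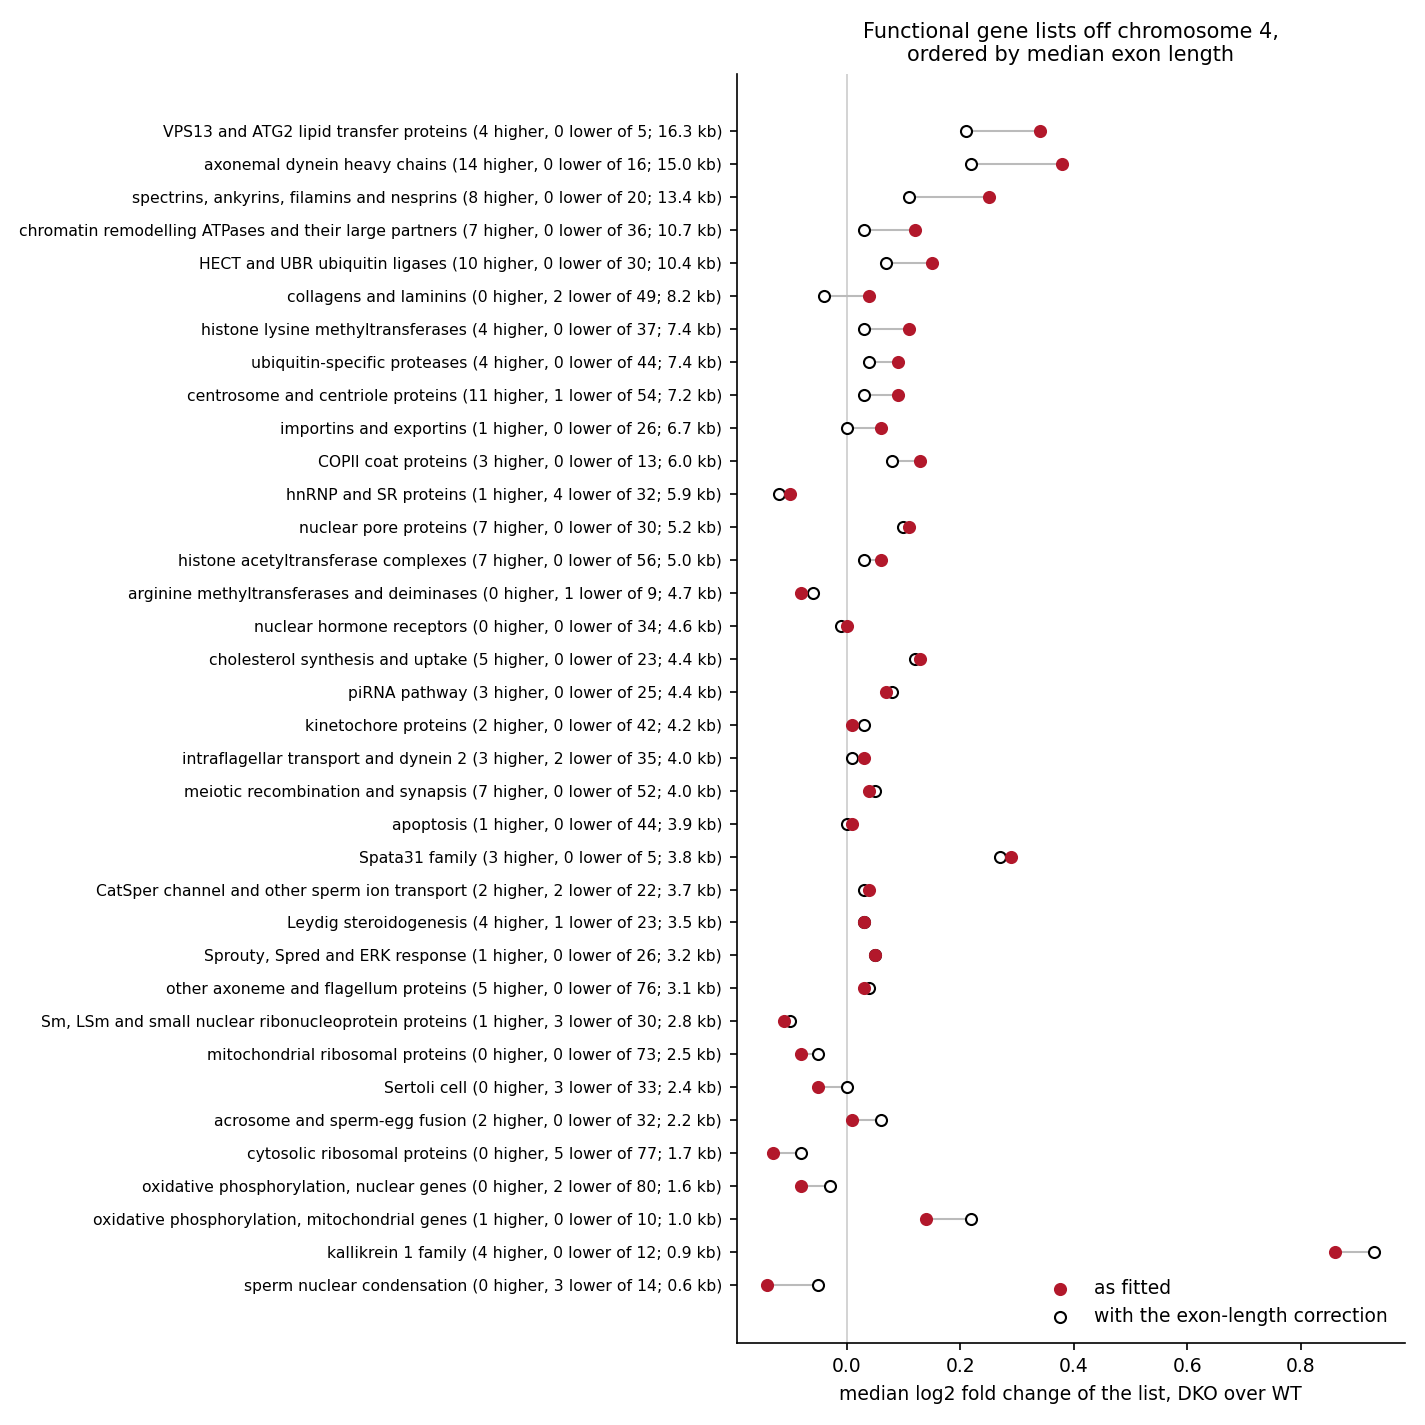
Median log2 fold change of DKO against WT for each list of genes off chromosome 4 (x axis), as fitted and after the length correction, with the number of members tested and called. The dynein heavy chains stand at 0.38 and 0.22, the kallikrein 1 family at 0.86 and 0.93, and the cytosolic ribosomal proteins at -0.13 and -0.08.

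Some genes of nuclear transport and chromatin rose by small amounts. Of 30 nuclear pore genes 7 rose and none fell (median log2 fold change 0.11, median exon length 5237), and 6 of the list rose after the length correction. Without DKO 2 there were 2 rises, without WT 2 there were 4 and without WT 1 there were 11. Tpr, which forms the basket of the pore, went from 2963 and 2822 normalized counts in WT to 3598 and 3739 in DKO (0.34, adjusted p = 4.73e-04). Nup205, a scaffold protein of the pore ring, went from 11021 and 10137 to 12831 and 13164 (0.30, adjusted p = 7.83e-04). Both genes were higher in each DKO library than in either WT library. Of 42 kinetochore genes (median exon length 4243) Cenpf rose by 0.40 and Cenpe by 0.28, none fell, and 2 rose after the length correction. Without DKO 2 the list had 1 rise, and 1 gene fell without WT 1 and without WT 2.

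Of 56 genes of histone acetyltransferase complexes (median exon length 4951 nucleotides) 7 rose and none fell, and after the length correction 4 rose and 1 fell. The list had 1 rise without DKO 2, 2 without WT 2 and 11 without WT 1. Ep400, the ATPase of the TIP60 complex, had 10739 and 8963 normalized counts in WT and 12323 and 12728 in DKO (0.35, adjusted p = 4.98e-04). Kat6a rose by 0.45, and the acetyltransferases Crebbp and Ep300 rose by 0.33 and 0.32 but were not called after the correction (adjusted p = 0.201 and 0.195). Of 37 lysine methyltransferases (median exon length 7440) 4 rose, namely Ash1l (0.40), Kmt2d (0.37), Setd2 (0.34) and Dot1l (0.22), and 1 of the list was called after the correction. Without DKO 2 none rose, without WT 2 there were 2 rises and without WT 1 there were 7. Of 36 chromatin remodelling ATPases and their large partners 7 rose and none fell, at a median exon length of 10733 nucleotides, and 2 rises were called after the correction. Bptf, the largest subunit of the NURF remodeller, went from 2687 and 2467 to 3374 and 3503, by 0.42 (adjusted p = 4.08e-05) and by 0.28 with the correction (adjusted p = 0.00223). Of the remodelling list 1 member was called without DKO 2, and 3 were without WT 2 and without DKO 1.

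Ubiquitin ligases of the HECT and UBR families, which include some of the largest proteins of the cell, gave 10 rises and no fall among 30 genes off chromosome 4 (median log2 fold change 0.15, median exon length 10431). After the length correction 5 were called higher and the median was 0.07, and without DKO 2 there were 5 as well. Herc1 had 3629 and 3248 normalized counts in WT and 4570 and 5055 in DKO (0.49, adjusted p = 7.68e-06, and 0.25 with the correction). Birc6, an inhibitor of apoptosis that also acts as a ubiquitin ligase, went from 1268 and 1175 to 1646 and 1907 (0.54, adjusted p = 2.72e-05). It was the 1 member of 44 apoptosis genes off chromosome 4 that passed the test. Of all tested genes off chromosome 4, 1.82% rose and 0.917% fell. Of 44 ubiquitin-specific proteases (median exon length 7364) 4 rose, and 2 after the correction. Among all tested genes off chromosome 4, 1.38% rose at 4 to 8 kb of exons and 8.39% at 8 kb and over. Without WT 2, DKO 1 or DKO 2 there were 2 rises each, and without WT 1 there were 9. Usp34 went from 5926 and 5494 to 7666 and 8270 (0.48, adjusted p = 1.02e-06), with 0.30 after the correction (adjusted p = 1.64e-04).

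The VPS13 and ATG2 proteins, which carry lipids between membranes, rose in 4 of 5 genes off chromosome 4, with a median exon length of 16299 nucleotides and a median log2 fold change of 0.34. After the length correction the median was 0.21 and 1 gene was called, Vps13b (0.47 uncorrected, 0.28 corrected), and there were 2 rises without WT 2 or without DKO 1 and 1 without DKO 2. Spectrins, ankyrins, filamins and nesprins, the long proteins of the membrane skeleton and the nuclear envelope, rose in 8 of 20 genes (median 0.25, median exon length 13444), but in 2 after the correction, when 1 other fell, in none without DKO 2, in 2 without WT 2, in 5 without DKO 1 and in 12 without WT 1. Dst, which links microtubules and filaments, had 5428 and 4327 normalized counts in WT and 6109 and 6875 in DKO, and its log2 fold change went from 0.41 to 0.12 with the correction. The COPII coat, which buds vesicles from the endoplasmic reticulum, had 3 rises and no fall among 13 genes (median exon length 6020), and 1 rise after the correction. Without WT 2 or without DKO 2 none rose, and without DKO 1 there was 1.

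Some genes of germ cell function rose. Of 52 genes of meiotic recombination and synapsis 7 rose and none fell, with a median log2 fold change of 0.04 at a median exon length of 3984 nucleotides, and after the length correction 5 rose. Without DKO 2 there was 1 rise, and without WT 2 or without DKO 1 there were 3. Tex15, which acts in meiotic recombination and in transposon silencing, went from 2754 and 2440 normalized counts in WT over 3113 and 3641 in P2KO to 3526 and 3748 in DKO. Its log2 fold change in DKO was 0.49 (adjusted p = 1.59e-05) and 0.40 after the correction, and in P2KO it was 0.38 (adjusted p = 0.00307). Sycp2, a lateral element protein of the synaptonemal complex, rose by 0.23, and the kinase Atm by 0.40. Tdrd1 (0.26) and Tdrd6 (0.24), scaffold proteins of germ granules, were with Tex15 the 3 rises among 25 piRNA genes off chromosome 4 (median exon length 4358), where 3 rose after the correction as well and 1 without WT 2, DKO 1 or DKO 2.

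Of 5 Spata31 genes, which encode proteins of the developing sperm, 3 rose and 4 after the length correction, with medians of 0.29 and 0.27 at a median exon length of 3827 nucleotides. The rises numbered 1 without DKO 2, 2 without WT 2 or without DKO 1, and 5 without WT 1. Spata31d1c went from 1188 and 1084 to 1490 and 1572 (0.43, adjusted p = 2.42e-04). Zan, the sperm surface protein zonadhesin, went from 1228 and 987 to 1509 and 1679 (0.53, adjusted p = 6.97e-05), and was 1 of 2 rises among 32 genes of the acrosome and of sperm-egg fusion, whose median was 0.01 at a median exon length of 2190 nucleotides. In that list 2 rose after the length correction, and without DKO 1 or without DKO 2 there was 1.

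Some genes of the condensing sperm nucleus, a group of short exon length, fell. Of 14 genes off chromosome 4 (median exon length 600 nucleotides) 3 fell and none rose, with a median log2 fold change of -0.14. Their summed normalized counts were 385527 and 394977 in WT, 331880 and 361247 in P2KO and 355356 and 354309 in DKO. Prm1, a protamine that replaces histones on sperm DNA, had 53483 and 57631 normalized counts in WT and 46997 and 48702 in DKO (-0.22, adjusted p = 0.0302). Tnp1, a transition protein, had 37307 and 39406 against 31280 and 33108 (-0.25, adjusted p = 0.0130), and Cypt4 fell by 0.21 on the log2 scale. None of the list was called after the length correction, where the adjusted p was 0.325 for Prm1 and 0.194 for Tnp1, none was called without DKO 1 or without DKO 2, and 1 was without WT 2. Prm2, with 132883 and 133463 in WT and 122599 and 118845 in DKO, did not pass the test (-0.14, adjusted p = 0.151).

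Genes of ribosomal and mitochondrial proteins, with median exon lengths below that of all tested genes, showed the same sign in most cases and few calls. Of 77 cytosolic ribosomal protein genes off chromosome 4, 2 had a positive log2 fold change, 5 fell and none rose, and the median was -0.13 at a median exon length of 1739 nucleotides. After the length correction 3 fell and the median was -0.08, and without WT 2, DKO 1 or DKO 2 there was 1 fall each, while there were 8 falls without WT 1 and 9 with upper-quartile scaling. Rps29, a protein of the small subunit, had 1461 and 1327 in WT and 1112 and 1028 in DKO (-0.38, adjusted p = 0.00408); a tested pseudogene, Gm14303, is identical to it over 171 nucleotides, which makes its counts uncertain. None of 73 mitochondrial ribosomal protein genes passed the test (median -0.08). Of 80 nuclear genes of oxidative phosphorylation off chromosome 4, 2 fell (Ndufa2 by 0.34 and Atp5e by 0.31) and neither was called after the correction, without DKO 1 or without DKO 2, while the list had 1 fall without WT 2 and 4 without WT 1.

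Most genes of the mitochondrial genome had the opposite sign. Of 10 tested, 8 had a positive log2 fold change, and 1 rose. The median was 0.14 at a median exon length of 997 nucleotides, and the range ran from -1.35 to 0.40. The mitochondrial share of all counts was 0.636% and 0.698% in WT, 0.685% and 0.725% in P2KO and 0.72% and 0.699% in DKO. After the length correction 5 rose and the median was 0.22, and without WT 2 there were 3 rises. The gene that rose, mt-Nd5, a subunit of complex I, had 14708 and 15516 normalized counts in WT, 15824 and 14679 in P2KO and 19295 and 18358 in DKO (0.32, adjusted p = 2.96e-04). Its DKO values lay above all the others. It overlaps mt-Nd6 on the other strand, and the strand setting of the counts is not given in the sources used here.

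Several genes of nuclear RNA-binding proteins fell, and their exon length was not short. Of 32 hnRNP and SR protein genes off chromosome 4 (median exon length 5897 nucleotides) 4 fell and 1 rose, and 6 had a positive log2 fold change. After the length correction 8 fell and 1 rose, and the median went from -0.10 to -0.12. Without DKO 1 there was 1 fall, without DKO 2 there were 2 and without WT 2 there were 6. Hnrnpa0, which binds AU-rich elements of messenger RNAs, had 2460 and 1712 normalized counts in WT, 1904 and 2270 in P2KO and 1326 and 1232 in DKO. It fell by 0.70 on the log2 scale (SE 0.0994, adjusted p = 1.11e-05), although WT 1 and WT 2 differed by more than the gap between WT 2 and DKO 1, and DESeq2 on the 4 WT and DKO libraries did not call it (adjusted p = 0.179). The scaffold attachment factors Safb2 and Safb, which bind both DNA and RNA, fell by 0.44 and 0.25, while the splicing coactivator Srrm2, with 12842 nucleotides of exons, rose by 0.32.

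Among the genes named after their values were seen, Taf15, an RNA-binding protein of the FET family, went from 1686 and 1140 to 858 and 868 (-0.70, adjusted p = 1.47e-04), and DESeq2 on the 4 WT and DKO libraries did not call it (adjusted p = 0.221). Gar1, a protein of the box H/ACA particles that guide pseudouridylation, went from 455 and 318 to 211 and 217 (-0.84, adjusted p = 1.80e-04). In both genes WT 1 was the highest library of its genotype, and both DKO libraries lay below both WT libraries. P2KO values lay in the WT range or near it: 1033 and 1439 for Taf15 and 347 and 463 for Gar1.

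Among 30 Sm, LSm and other small nuclear ribonucleoprotein genes 3 fell and 1 rose (median -0.11, median exon length 2805), and after the length correction 2 fell and 1 rose. Without DKO 2 there was 1 fall. Snrnp70, the U1 protein that binds U1 snRNA, had 3280 and 2705 normalized counts in WT and 2172 and 2268 in DKO, with log2 fold changes of -0.43 (adjusted p = 2.96e-04) and -0.49 after the length correction. Lsm4, of the ring that binds U6 snRNA, fell by 0.42. The gene that rose was Snrnp200 (0.26), the helicase that unwinds U4 from U6, and it was not called without WT 2, DKO 1 or DKO 2.

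Leydig cell genes of steroid synthesis moved in both directions. Star, which delivers cholesterol to the inner mitochondrial membrane, had 2175 and 1967 normalized counts in WT, 2825 and 2054 in P2KO and 2968 and 2923 in DKO. Both DKO libraries lay above both WT libraries and were close to each other, and the log2 fold change was 0.51 (SE 0.0857, adjusted p = 1.59e-04) with and without the length correction. Cyp17a1, which makes androgen precursors, went from 9205 and 8547 to 12655 and 9389 (0.31, adjusted p = 0.0193). Cyp11a1, the side-chain cleavage enzyme, went from 2564 and 2644 to 3558 and 2751 (0.28, adjusted p = 0.0324). In both of these the rise was mainly in DKO 1, and DESeq2 on the 4 libraries called neither (adjusted p = 0.793 and 0.758).

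The isoforms of 3-beta-hydroxysteroid dehydrogenase, the enzyme that forms progesterone and androstenedione, went apart. Hsd3b6 rose from 1593 and 1644 to 2273 and 2014 (0.41, adjusted p = 3.08e-04), and Hsd3b1 fell from 1961 and 2299 to 1385 and 1711 (-0.46, adjusted p = 2.73e-04). Neither pair of groups overlapped, but DESeq2 on the 4 libraries did not call Hsd3b1 (adjusted p = 0.280). Over 23 steroidogenesis genes 4 rose and 1 fell, with a median of 0.03, and without DKO 1 there were 1 rise and no fall. Lhcgr, the receptor of luteinizing hormone, had 238 and 276 in WT and 204 and 193 in DKO (-0.38, adjusted p = 0.128). Insl3, a peptide hormone of Leydig cells, had 123 and 149 against 137 and 144, and Hsd17b3, which completes testosterone synthesis, 813 and 840 against 923 and 821, and neither passed the test. The summed normalized counts of the 8 Leydig markers were 18672 and 18365 in WT, 20878 and 18732 in P2KO, 24102 in DKO 1 and 19946 in DKO 2. Their part in the changes of single Leydig genes was not tested.

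Of 23 genes of cholesterol synthesis and uptake off chromosome 4, 5 rose and none fell, with a median of 0.13 and 0.12 after the length correction, when 3 were called. Sc5d, a late enzyme of the pathway, went from 302 and 311 to 523 and 382 (0.56, adjusted p = 0.00318). Lss (0.48), Msmo1 (0.49) and Dhcr7 (0.35) also rose. In these 4 genes the DKO 1 value was the highest of the WT and DKO libraries, and the list had 1 call without DKO 1 and 2 without WT 2.

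The kallikrein 1 family, a cluster of serine protease genes on chromosome 7 of which several are active in mouse Leydig cells, gave some of the largest rises among protein-coding genes. Of 12 tested family genes 4 rose and none fell, with a median log2 fold change of 0.86 at a median exon length of 883 nucleotides, and 0.93 after the length correction. Klk1b27 (chr7:44052290-44056712) had 148 and 94.4 normalized counts in WT, 107 and 116 in P2KO and 429 and 260 in DKO. Klk1b21 had 160 and 107, 138 and 142, and 398 and 264, and Klk1b24 had 101 and 87.9, 98.5 and 101, and 275 and 191. In each of them every DKO library exceeded the 4 others, and DKO 1 was the higher. Their log2 fold changes were 1.53 (SE 0.182, adjusted p = 3.38e-07), 1.33 (SE 0.168, adjusted p = 1.22e-06) and 1.31 (SE 0.170, adjusted p = 2.08e-06).

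DESeq2 on the 4 libraries called Klk1b24 (adjusted p = 1.37e-05) and not Klk1b27 (0.0636) or Klk1b21 (0.0571). Klk1, the tissue kallikrein, went from 32.7 and 43.5 to 79.5 and 68.9 (0.95, adjusted p = 0.0265), and was not called without WT 1, DKO 1 or DKO 2. Its transcript is 96.6% identical over 582 nucleotides to that of Klk1b5, so counts of both are uncertain. Klk1b22, with a log2 fold change of 1.45, did not pass the test (adjusted p = 0.0653). The other tested members, such as Klk1b8 (-0.12) and Klk1b26 (-0.23), did not pass it either.

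The sequences upstream of these genes are shown because 3 of the 4 called family genes share a stretch of it. Each window holds the 250 bases before the transcription start on the plus strand, from RefSeq on GRCm38.p6: chr7:44052040-44052289 for Klk1b27, chr7:44102042-44102291 for Klk1b21, chr7:44187986-44188235 for Klk1b24 and chr7:44225110-44225359 for Klk1. Capitals mark a run of 89 bases, the longest that the windows of Klk1b27, Klk1b21 and Klk1b24 have in common.
Klk1b27: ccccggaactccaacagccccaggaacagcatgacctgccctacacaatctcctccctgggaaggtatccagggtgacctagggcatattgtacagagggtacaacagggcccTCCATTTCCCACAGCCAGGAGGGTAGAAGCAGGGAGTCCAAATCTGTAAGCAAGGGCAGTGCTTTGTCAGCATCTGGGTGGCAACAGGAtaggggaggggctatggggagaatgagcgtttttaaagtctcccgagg
Klk1b21: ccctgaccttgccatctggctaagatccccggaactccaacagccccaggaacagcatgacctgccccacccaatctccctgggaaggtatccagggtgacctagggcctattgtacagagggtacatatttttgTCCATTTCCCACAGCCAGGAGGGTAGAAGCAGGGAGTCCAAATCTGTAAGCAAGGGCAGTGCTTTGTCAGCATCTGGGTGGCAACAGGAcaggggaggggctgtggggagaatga
Klk1b24: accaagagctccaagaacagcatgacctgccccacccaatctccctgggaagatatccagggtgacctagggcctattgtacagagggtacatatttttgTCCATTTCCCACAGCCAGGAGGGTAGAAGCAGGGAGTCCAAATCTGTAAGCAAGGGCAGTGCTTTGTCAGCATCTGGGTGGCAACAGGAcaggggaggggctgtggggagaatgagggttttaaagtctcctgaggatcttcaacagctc
Klk1: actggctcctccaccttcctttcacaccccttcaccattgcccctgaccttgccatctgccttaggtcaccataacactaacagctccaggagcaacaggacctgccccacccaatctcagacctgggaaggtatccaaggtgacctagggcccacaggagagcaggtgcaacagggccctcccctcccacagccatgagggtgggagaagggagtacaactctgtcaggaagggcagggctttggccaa

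The run begins 137, 115 and 150 bases before the start of Klk1b27, Klk1b21 and Klk1b24. The run was defined from these 3 windows, so its presence in them was fixed in advance. Only exact matches were counted, so a copy with a changed base counts as absent. On that count it occurs in the windows of 3 of the 14 family genes and in 3 of 32851 windows of all genes. Klk1 lacks it, as does Klk1b22, whose log2 fold change was 1.45. A half-site of the androgen and glucocorticoid receptor element, AGAACA or its reverse complement TGTTCT on either strand, was found in 1 of the 4 printed windows, that of Klk1b24, at 237 bases before the start. It was found in 2 of the 14 family windows and in 16.1% of all windows of this length. These matches describe letters in 1 window per gene and say nothing about binding.

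**Figure D4:**
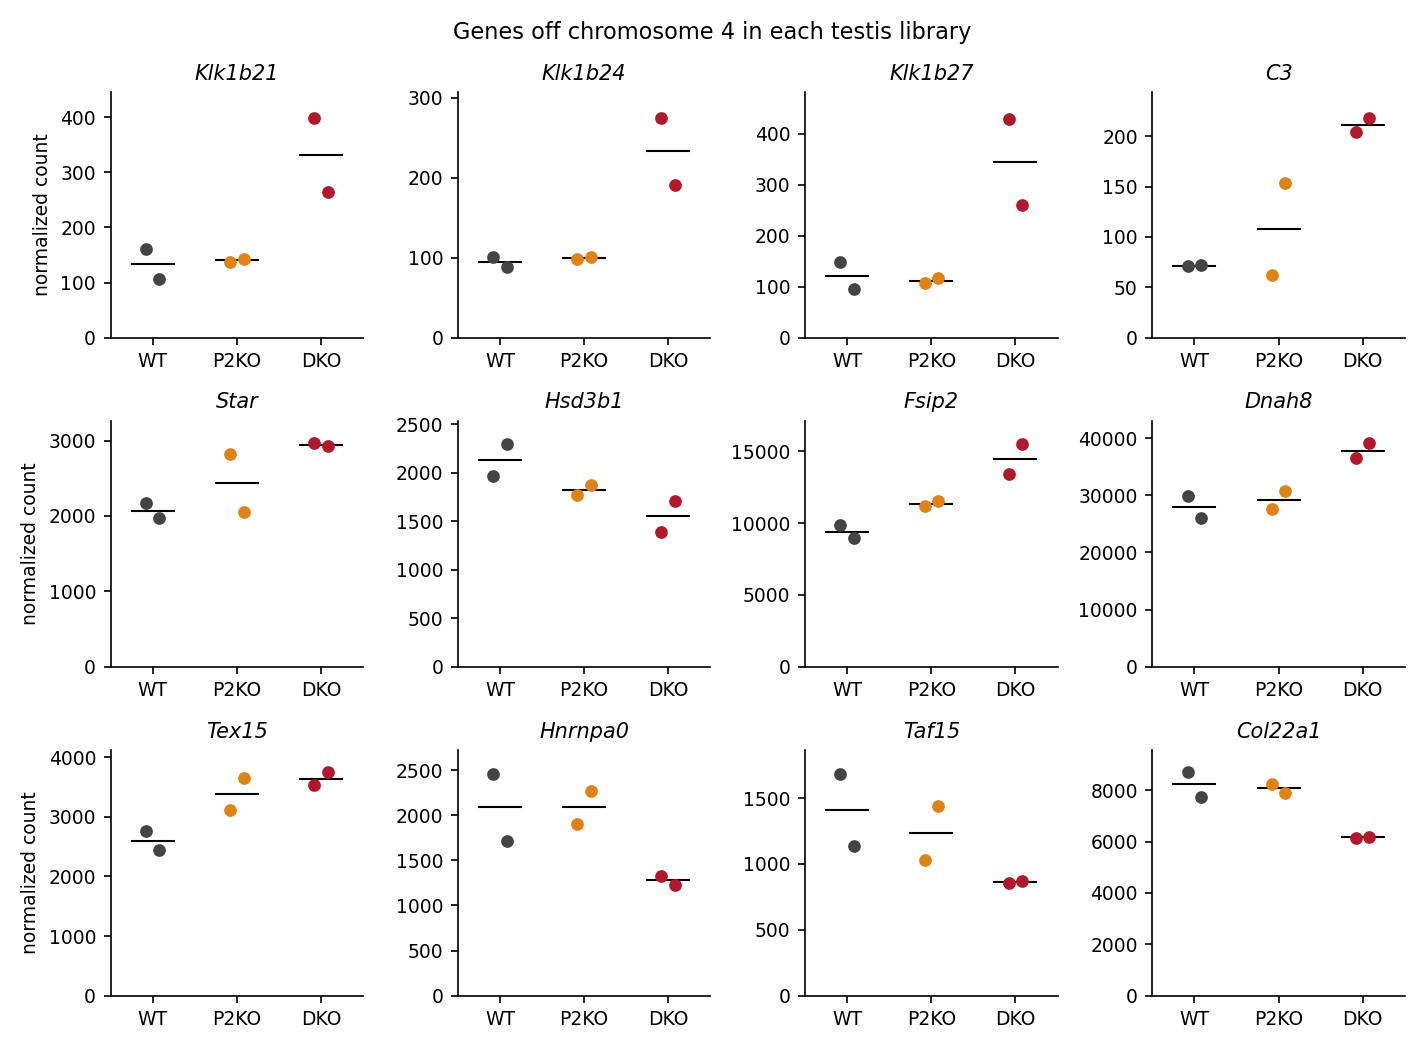
Normalized counts of 12 genes in the WT, P2KO and DKO libraries, 1 panel per gene with its own linear axis from 0; each point is a library and the bar is the mean of its genotype. The 3 kallikrein genes, C3 and Star are high in both DKO libraries, and Hnrnpa0 and Taf15 are low in both.

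Other rises of at least 2-fold came from genes with few counts or from non-coding genes. C3, the central component of complement, had 71.0 and 72.2 normalized counts in WT, 62.1 and 154 in P2KO and 204 and 218 in DKO (1.56, SE 0.224, adjusted p = 1.37e-05). Igfbp5, which binds insulin-like growth factors, went from 13.5 and 20.4 to 44.1 and 47.7 (1.41, adjusted p = 0.0329). Spry4, an inhibitor of receptor tyrosine kinase signalling, went from 34.9 and 47.2 to 111 and 81.6 (1.22, adjusted p = 7.05e-04) and was the 1 gene called among 26 of the Sprouty, Spred and ERK response list off chromosome 4. It was not called without DKO 1 (0.97, adjusted p = 0.0806), nor was any of the list by DESeq2 on 6 libraries, and Igfbp5 was not called without WT 1, DKO 1 or DKO 2. For C3 and Spry4 the DKO libraries lay above all the others, while 1 P2KO library of C3 lay between the genotypes.

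Gm47015, a non-coding RNA gene on chromosome 10, had 12.4 and 13.0 in WT, 46.1 and 57.5 in P2KO and 58.4 and 42.4 in DKO, so that the mutant genotypes overlapped. Its log2 fold change was 1.99 in DKO (adjusted p = 1.58e-04) and 2.01 in P2KO (adjusted p = 4.63e-04). The non-coding gene Gm20559 on chromosome 6 was the reverse, with 119 and 107 in WT, 38.1 and 42.6 in P2KO and 37.4 and 35.0 in DKO, and log2 fold changes of -1.64 and -1.49. 1700025F24Rik, another non-coding gene, took steps from 150 and 147 over 79.8 and 67.1 to 29.7 and 54.1 (-1.84 in DKO, -1.01 in P2KO).

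Among falls of protein-coding genes, Fgf20, a secreted growth factor, went from 56.3 and 51.8 normalized counts to 14.4 and 21.2 (-1.61, adjusted p = 0.00155), with 34.6 and 57.5 in P2KO. Chgb, a protein of secretory granules, went from 125 and 108 to 58.4 and 64.7 (-0.92), and Ccdc9, a coiled-coil protein, from 1212 and 1024 to 671 and 704 (-0.70, adjusted p = 5.34e-07). Nudt12os, which lies antisense to Nudt12, went from 141 and 151 to 40.2 and 50.9 (-1.69, adjusted p = 1.72e-07), and its counts are uncertain because the strand setting is unknown. H19, an imprinted non-coding RNA, had 52.9 and 36.1 in WT and 22.0 and 19.1 in DKO (-1.09, adjusted p = 0.0488). The call was lost after the length correction (adjusted p = 0.0706), with the replicate number as a block (0.0764), in the fit of 4 libraries (0.071) and on leaving out any library but WT 2, with adjusted p from 0.0538 to 0.326. Neither Fgf20 nor Chgb was called without DKO 1.

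Sertoli cell genes fell in 3 of 33 cases and rose in none, with a median of -0.05. Rhox8, an X-linked homeobox gene of Sertoli cells that responds to androgen, had 247 and 192 in WT, 224 and 240 in P2KO and 112 and 122 in DKO, so both DKO libraries lay well below the others (-0.90, SE 0.153, adjusted p = 1.91e-04). The other falls of the list were Col2a1 (-0.46), which was also called after the length correction, and Ptgds (-0.25), a prostaglandin synthase, which was not. Summed over 16 tested Sertoli markers, normalized counts were 14092 and 13587 in WT and 13517 and 12388 in DKO. Without WT 1 the Sertoli list had 2 rises as well. Of 49 collagen and laminin genes off chromosome 4, 2 fell and none rose, although their median exon length was 8176 nucleotides. Col22a1, a collagen of tissue junctions, had 8729 and 7724 in WT, 8253 and 7896 in P2KO and 6154 and 6169 in DKO (-0.42, adjusted p = 1.48e-05), and -0.50 after the length correction. Col2a1, the collagen of cartilage, went from 1336 and 1215 to 867 and 992.

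No nuclear receptor gene passed the test among 34 off chromosome 4, and the median log2 fold change of that list was -0.00. Of 9 arginine methyltransferase and related genes off chromosome 4, Jmjd6, a lysyl hydroxylase once described as an arginine demethylase, fell from 2610 and 2493 to 2155 and 2104 (-0.26, adjusted p = 0.0166), and none rose. The fall was not called without DKO 1 or without DKO 2. Of 26 importins and exportins 1 rose, and none did after the length correction, without DKO 1 or without DKO 2. Of 22 genes of the CatSper channel and other sperm ion transport 2 rose and 2 fell, but none was called without DKO 1, 1 fell and none rose without WT 2 or without DKO 2, and 4 rose without WT 1.

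Several of the largest changes off chromosome 4 were in pseudogenes nearly identical to a gene on it. A near-identical copy was taken as another gene whose transcript matches at 95% identity or more over at least 150 nucleotides and at least 50% of the shorter transcript. Of the 34 genes off chromosome 4 that changed at least 2-fold, 11 had such a copy, and 6 had 1 on chromosome 4. Reads of these pairs cannot always be assigned to 1 gene, so their values are uncertain. BC002163, a processed pseudogene within Zbtb20 on chromosome 16, had 295 and 309 normalized counts in WT, 282 and 277 in P2KO and 6.71 and 9.54 in DKO (-5.21, adjusted p = 2.11e-18). Its parent Ndufs5 on chromosome 4, a subunit of complex I, had 89.0 and 75.0, 71.0 and 84.1, and 553 and 561 (2.77, adjusted p = 4.92e-17). One gene of the pair lost counts in the DKO while the other gained them.

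The pair is shown over 145 bases because this window holds both of the differences found in an alignment of 318 nucleotides (99.4% identity). Capitals mark the bases that differ, and positions count from 1 at the 5′ end of the window, with the base of Ndufs5 first: T61C and A85G. The windows, from GENCODE transcripts on GRCm38, lie at chr4:123715915-123716059 on the minus strand for Ndufs5 and at chr16:42955651-42955795 on the plus strand for BC002163.
Ndufs5: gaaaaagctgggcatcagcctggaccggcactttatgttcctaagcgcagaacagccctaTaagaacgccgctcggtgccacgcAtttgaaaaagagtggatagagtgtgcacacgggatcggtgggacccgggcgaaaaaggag
BC002163: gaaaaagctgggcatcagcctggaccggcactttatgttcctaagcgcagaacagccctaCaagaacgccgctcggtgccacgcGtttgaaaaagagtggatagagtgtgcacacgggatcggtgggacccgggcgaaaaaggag

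Gm10036, a processed pseudogene 99.4% identical to Rpl11 over 503 nucleotides, had 1.13 and 2.78 normalized counts in WT, 71.8 and 1.06 in P2KO and 136 and 153 in DKO. At most 3 counts were found in a WT library, and against that floor the DKO was at least 46.9-fold higher. Gm10288, another copy of Rpl11, rose by 1.83 on the log2 scale, and Rpl11 itself, a ribosomal protein gene on chromosome 4, fell from 3769 and 3781 to 3174 and 2942 (-0.30, adjusted p = 0.00229). Gm5898, a pseudogene of Thrap3, went from 148 and 164 to 33.5 and 25.4 (-2.39, adjusted p = 3.42e-10), and Gm11585, a pseudogene of Ppih, from 1.13 and 10.2 to 28.7 and 32.9 (2.32, adjusted p = 0.00555). Gm11585 was not called without WT 1, DKO 1 or DKO 2, and Gm10288 and Rpl11 were not without DKO 2. The parents Thrap3 and Ppih on chromosome 4 did not pass the test, with log2 fold changes of 0.11 and 0.03.

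On chromosome 4 itself the calls were more frequent and larger. Of 1227 tested genes 73 were higher (5.95%) and 61 lower (4.97%), and the groups did not overlap for any of the 134, nor for 51.0% of all tested genes of the chromosome. The median log2 fold changes were 0.63 and -0.86, 23 rises and 26 falls were at least 2-fold, and 34 and 21 were under 1.5-fold. The median exon length was 4708 nucleotides for genes that rose and 2405 for genes that fell, against 3134 nucleotides for those tested, and 66 rose and 64 fell after the length correction. On the other chromosomes between 1.73% (X) and 3.70% (chromosome 1) of tested genes were called in either direction, apart from Y with 0 of 96 and the mitochondrial genome with 1 of 12.

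The calls were grouped along the chromosome. Between 120 and 130 Mb 17.6% of 148 tested genes were called, between 130 and 140 Mb 28.6% of 182, and between 140 and 150 Mb 28.1% of 135, while between 150 and 160 Mb none of 106 was. Of the 134 called genes 121 lay within 25 Mb of Padi4, where 661 genes were tested, and 89 within 10 Mb, where 317 were. P2KO against the same WT libraries had no called gene between 120 and 130 Mb, 11 rises and 2 falls between 130 and 140 Mb, and 11 rises and 12 falls between 140 and 150 Mb, against 15 and 11, 27 and 25, and 18 and 20 in DKO. The DKO line comes from 1 founder. For genes that changed in DKO and not in P2KO, this founder and its background cannot be told apart from the Padi4 deletion. Genes that changed alike in P2KO did so in mice without that deletion. For these, the Padi2 allele cannot be told apart from the background of the P2KO line.

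**Figure D5:**
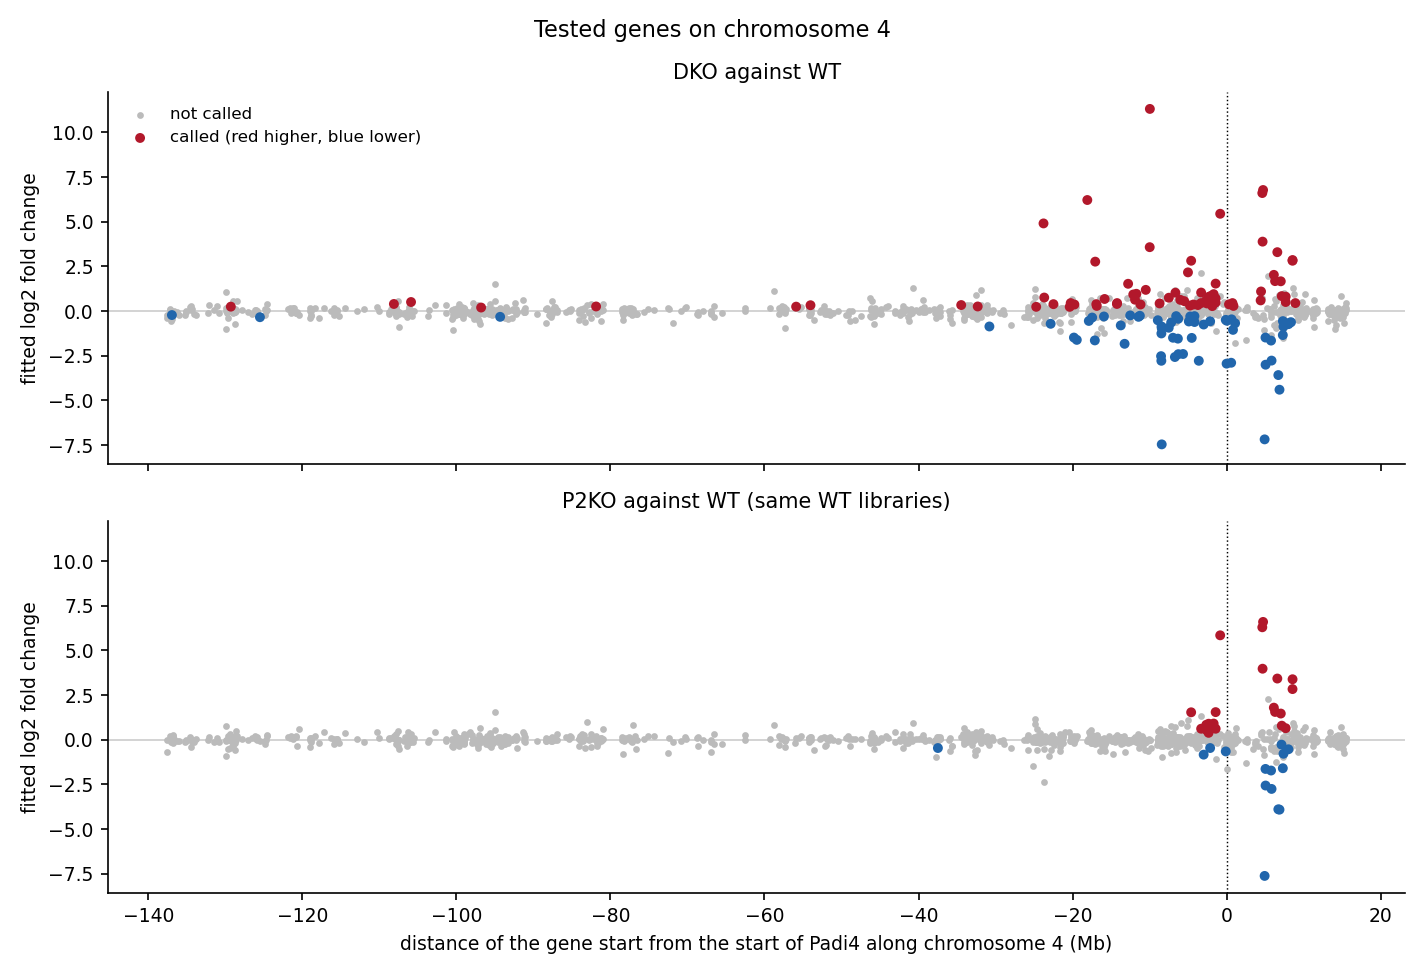
Log2 fold change of every tested gene on chromosome 4 (y axis) against the distance of its start from that of Padi4 in Mb (x axis), for DKO against WT and for P2KO against WT, with called genes coloured and a dotted line at Padi4. The called genes of both comparisons lie mostly within 25 Mb of that line, and none lies more than 10 Mb beyond it on the right.

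Between 117 and 137 Mb stood several genes with large changes in DKO and P2KO values near those of WT. Sdc3, the syndecan of neural tissue (chr4:130792537-130826319), had 89.0 and 98.1 normalized counts in WT, 92.2 and 91.6 in P2KO and 1102 and 1144 in DKO (3.58, adjusted p = 1.59e-22). Gm12970, which lies antisense within it, had no counts in WT or P2KO and 339 and 293 in DKO, at least 103-fold above the floor of 3 counts per library. Reads of Sdc3 and Gm12970 could be told apart by strand only. Runx3, a transcription factor of the Runt family (chr4:135120652-135177990), went the other way, with 401 and 357 in WT, 371 and 340 in P2KO and 64.2 and 79.5 in DKO (-2.40, adjusted p = 1.49e-14).

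Rab42, a small GTPase, went from 136 and 134 to 23.0 and 15.9 (-2.78), with 148 and 119 in P2KO. Gm17300, a non-coding gene opposite Rcc1 and Snhg3, had 159 and 234 counts in WT and 2 and 0 in DKO, at least 65.4-fold lower. Csmd2, a long transmembrane protein with 17077 nucleotides of exons, went from 152 and 153 to 389 and 496 (1.53, adjusted p = 1.81e-10), and to 1.36 after the length correction. E2f2, a transcription factor of the cell cycle, had 38 and 59 raw counts in WT, 257 and 47 in P2KO and 318 and 373 in DKO (2.82, adjusted p = 4.82e-08), so the 2 P2KO libraries differed more than those of either other genotype. E2f2 was called in P2KO as well (1.54, adjusted p = 0.0236). In Gm10036, the copy of Rpl11 described above, P2KO 1 likewise lay above P2KO 2.

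Between 137 and 149 Mb stood several genes whose P2KO values were near those of the DKO, and others where they were not. Zfp990, a zinc-finger gene, had 21.4 and 13.0 in WT, 1681 and 1597 in P2KO and 1738 and 1993 in DKO, with log2 fold changes of 6.78 in DKO and 6.60 in P2KO. Zfp979 went the other way, from 304 and 298 over 18.6 and 21.3 to 12.5 and 15.9 (-4.40 and -3.91), as did Zfp982 (-3.58 and -3.89) and Zfp993 (-2.77 and -2.75). Zfp978, whose transcript is 99.5% identical to that of Zfp979 over 572 nucleotides, rose where Zfp979 fell, from 2.25 and 1.85 over 23.9 and 22.4 to 21.1 and 21.2, at least 6.87-fold above the floor. Gm21411, which rose by 2.03 in DKO, is 97.3% identical to Zfp990 over 489 nucleotides and 95.1% identical to Zfp993 over 387. Reads of these genes and of other near-identical copies in the cluster cannot always be assigned to 1 gene, so the values of Zfp978, Zfp979, Zfp990, Zfp993 and Gm21411 are uncertain. Gm26763, a non-coding gene that overlaps several others of this zinc-finger cluster, had 305 and 300 counts in WT and 1 and 3 in DKO, at least 103-fold lower. Mrto4, a ribosome assembly factor, went from 696 and 639 over 2028 and 1884 to 1954 and 1926 (1.54 in DKO, 1.55 in P2KO). Fam131c was different, with 15.8 and 15.7 in WT, 6.21 and 13.8 in P2KO and 1.92 and 2.12 in DKO, at least 5.20-fold lower in DKO, while P2KO did not pass the test (-0.68, adjusted p = 0.769). Gm13003, a non-coding gene, had 460 and 499, 296 and 461, and 65.1 and 75.3 (-2.78 in DKO, and -0.35 in P2KO, which did not pass). Efhd2, a calcium-binding protein, fell by 0.68 in DKO, and Tnfrsf1b, a receptor of tumour necrosis factor, rose by 1.10, while their P2KO values of -0.16 and 0.28 did not pass the test. Fam131c was not called without WT 2, DKO 1 or DKO 2, nor Tnfrsf1b without WT 1, DKO 1 or DKO 2.

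Genes with higher counts changed as well. Mtor, the kinase of the growth-controlling TOR complexes, had 6916 and 5543 normalized counts in WT, 9186 and 10420 in P2KO and 10707 and 11076 in DKO (0.81, adjusted p = 2.89e-10), and 0.72 after the length correction. Hspg2, the basement membrane proteoglycan perlecan, had 444 and 387, 653 and 617, and 828 and 882 (1.04, adjusted p = 3.00e-10). In both genes all mutant libraries lay above both WT libraries. Ubr4, a ubiquitin ligase with 17997 nucleotides of exons, had 16731 and 12258 in WT and 19528 and 20968 in DKO (0.48, adjusted p = 1.99e-04), and 0.31 after the length correction. Vps13d, a lipid transfer protein, rose by 0.60 and by 0.37 after the correction. At 134 to 137 Mb, Kdm1a, a histone demethylase, fell from 3700 and 3552 to 3088 and 2865 (-0.28, adjusted p = 0.00854), and Catsper4, a subunit of the sperm calcium channel, from 2897 and 2845 to 2376 and 2363 (-0.28, adjusted p = 0.00748). Without DKO 2 neither was called, and Catsper4 was not called without DKO 1 either.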

How the data were processed

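The authors sequenced testis RNA of 2 mice of each genotype (WT, P2KO and DKO) as paired reads from poly(A)-selected, strand-specific libraries. The authors deposited a table of raw counts, the reads that STAR assigned to each gene of GRCm38 after trimming with Trim Galore, with no normalization. The versions of these tools, and the strand for which reads were counted, are not given in the sources used here. All 6 columns were mapped to a genotype and a replicate by their names. The labels name mice as separate samples of a genotype, and p-values measure the spread between such samples.

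A filter on low counts (filterByExpr, minimum count 10) was applied, libraries were scaled by TMM, and edgeR's quasi-likelihood test was applied to all 6 libraries in 1 fit (R 4.3.3, edgeR 4.0.16, limma 3.58.1). Benjamini-Hochberg adjustment ran over the 20744 tested genes, and genes with an adjusted p under 0.05 were called. Normalized counts are counts over the TMM-scaled library size, itself set against the geometric mean of all 6. The SE of a log2 fold change was obtained from its size and the F statistic, as their ratio after taking the root of F. A genotype with no more than 3 counts in each library was taken to be at the floor, and bounds and standard errors cover these libraries only. With 2 libraries against 2, exact permutation of the labels for 1 gene cannot pass 0.05.

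Positions, types and merged exon lengths of genes came from the GENCODE annotation of GRCm38, promoter windows from RefSeq on GRCm38.p6, and near-identical copies from BLAST 2.17.0. The length correction was an offset per library from a lowess curve of log2 ratio on log2 exon length (span 0.3).

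Genes named in the text are the targeted genes, the 15 largest rises and 15 largest falls off chromosome 4 without overlap of libraries, the 10 called genes with the smallest p whose call held under the length correction, and the extremes of short and long genes. Others are the 10 largest rises and falls on chromosome 4, up to 4 called members of each list (or its most highly counted genes), and the genes the study names. Genes outside this rule, among them Taf15, Gar1, Dnah5, Dnah9, Dnah11, Setd2, Dot1l, Crebbp, Ep300, Lhcgr, Insl3, Hsd17b3, Prm2, E2f2, Csmd2, Mtor, Hspg2 and Kdm1a, were chosen after their values were seen. Some genes that the rule names are not reported here. The members and lists were chosen with earlier results of these data known. The fit was also run on simulated counts, and the outcome is not reported here.

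The alternatives were RLE or upper-quartile scaling, TMM factors from genes off chromosome 4, no filter or a mean of at least 50 counts, DESeq2 1.42.0 on 6 or on 4 libraries, edgeR on 4 libraries, the replicate number as a block, the length correction alone or with the block, a correction for GC content, and each library left out in turn.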

Additional observations from a re-analysis of the deposited data

How the results depend on the processing

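The reported fit gave 355 rises and 179 falls off chromosome 4, 73 rises and 61 falls on it, and a rank correlation of fold change with exon length of 0.293. DESeq2 on 6 libraries gave 213, 94, 52 and 49 calls, DESeq2 on 4 libraries 149, 67, 45 and 43. The length correction gave 225 rises off chromosome 4 and a correlation of 0.0097, and together with the replicate block 195 rises and 0.0097. The correlation was 0.120 with no filter on low counts and 0.383 with a mean of at least 50 counts. With each library left out in turn, rises off chromosome 4 ran from 81 (without DKO 2) to 670 (without WT 1), falls from 64 (without DKO 1) to 235 (without WT 1), rises on chromosome 4 from 46 (without DKO 1) to 92 (without WT 1), falls there from 43 (without DKO 2) to 68 (without WT 1), and the correlation from 0.143 (without WT 2) to 0.30 (without WT 1). Of the genes called off chromosome 4, 140 rises and 124 falls were kept without WT 2 and 76 and 70 without DKO 2. No called gene changed direction except R3hdm1, whose log2 fold change of 0.22 became -0.04 with the length correction, alone or with the replicate block. The cause of these differences was not tested, beyond the smaller number of libraries in the fits that leave some out. In the other settings the counts stayed within 1.5 times of the reported ones, and 52 rises and 39 falls off chromosome 4 and 70 genes on it were called in all 16 edgeR alternatives. Among called genes whose own values the report gives, calls were lost without DKO 2 for Ash1l, Atm, Atp5e, Catsper4, Cenpe, Crebbp, Cypt4, Dnah5, Dot1l, Dst, Ep300, Fam131c, Gm10288, Gm11585, H19, Hydin, Igfbp5, Jmjd6, Kat6a, Kdm1a, Klk1, Kmt2d, Lsm4, Ndufa2, Padi3, Prm1, Ptgds, Qrich2, Rpl11, Rps29, Safb, Setd2, Snrnp200, Spag17, Srrm2, Sycp2, Tdrd1, Tdrd6, Tnfrsf1b and Tnp1. Calls were lost without DKO 1 for Atm, Atp5e, Catsper4, Chgb, Cyp11a1, Cyp17a1, Cypt4, Dhcr7, Dot1l, Fam131c, Fgf20, Gm11585, H19, Hsd3b1, Hsd3b6, Igfbp5, Jmjd6, Klk1, Lss, Msmo1, Ndufa2, Padi3, Prm1, Ptgds, Safb, Safb2, Sc5d, Snrnp200, Spag17, Spry4, Tdrd1, Tdrd6, Tnfrsf1b and Tnp1. Without WT 2 they were lost for Atm, Cypt4, Dhcr7, Dot1l, Ep300, Fam131c, Kat6a, Lss, Ndufa2, Padi3, Prm1, Qrich2, Setd2, Snrnp200, Spag17, Tdrd1 and Tdrd6, and without WT 1 for Atm, Atp5e, Dnah5, Gm11585, H19, Igfbp5, Klk1, Padi3, Safb and Tnfrsf1b. Of the gene lists, DESeq2 on 6 libraries called 9 dynein heavy chains, 4 remodelling, 6 HECT and UBR, 5 spectrin and related, 1 steroidogenesis and 1 cholesterol gene higher, and DESeq2 on 4 libraries 6 centrosome, 3 acetyltransferase, 3 remodelling, 6 HECT and UBR, no COPII, 4 spectrin and related, 2 steroidogenesis, 1 cholesterol and 1 kallikrein gene higher and 1 hnRNP or SR gene lower. On 6 and on 4 libraries, DESeq2 called 3 and 1 cytosolic ribosomal protein genes lower. The falls were 1 and 0 for nuclear oxidative phosphorylation and 1 and 2 for sperm nuclear condensation. The rises were 2 and 3 for ubiquitin-specific proteases and 1 and 0 for the CatSper list. The replicate numbers paired nothing that the labels name: the deviations of same-numbered libraries correlated by 0.0574 between WT and DKO, with 2 pairs, and the fit with the replicate number as a block gave 280 rises and 151 falls off chromosome 4 and 68 and 56 on it. Depth limits the genes with few counts, for which 2 libraries per genotype leave wide errors.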
